A study of Mus musculus with 12 samples.

Results

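Chemokine genes were followed in oligodendrocyte precursor cells (OPCs), the dividing cells of the brain that give rise to myelinating oligodendrocytes. The 10 genes, chosen by symbol, are Cxcl9, Cxcl10, Cxcl11, Ccl2, Ccl5, Ccl7, Ccl8, Cxcl12, Cx3cl1 and Cxcl16. All 10 were found among the 55536 annotated genes of the data, and all 10 were among the 18995 genes that passed the filter on low counts, Cxcl9, Cxcl11 and Ccl8 only through the libraries with IFN-γ. Total RNA of cultured primary OPCs from mouse was sequenced in 12 libraries, which form 4 groups of 3 replicates. The cells came from brains of pups at postnatal days 4 to 6, from Sox10:Cre-RCE:loxP(EGFP) mice on a mixed C57BL/6 and CD1 background, in which a Cre recombinase driven by Sox10 switches on GFP in the oligodendrocyte lineage. They were taken either by sorting for GFP or with magnetic beads against CD140a, and the labels do not say which way was used for which library. Several brains were pooled for each preparation, and the replicates came from different litters, so the spread between replicates is one between litters.

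In all groups the OPCs were grown with the growth factors PDGF-AA and bFGF. Ctr received neither agent. The EZH2i group was treated with the EZH2 inhibitor EPZ011989 (1.5 μM, 4 days), which was replaced every 48 h. The IFN-γ group received the cytokine at 100 ng/ml for 6 h, and the IFN-γ + EZH2i group received IFN-γ for 6 h at the end of the inhibitor treatment. A vehicle for either agent is not given in the sources used here. The labels call the mouse model EAE, although the cells were prepared from pups.

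Chemokines are small proteins that steer migrating cells through receptors of the G protein-coupled family. CXCL9, CXCL10 and CXCL11 bind CXCR3, which is carried by activated T cells, and are classical products of IFN-γ signaling, which runs through the kinases JAK1 and JAK2 and induces the transcription factor IRF1. CCL2 and CCL7 recruit monocytes, mainly through CCR2, CCL8 is encoded in the same gene cluster, and CCL5 acts on receptors that include CCR1 and CCR3. CXCL12 binds CXCR4 and ACKR3 and guides neural and glial precursors. CX3CL1 and CXCL16 are made as membrane-anchored proteins that can be shed by ADAM10 and ADAM17, and their receptors are CX3CR1, a marker of microglia, and CXCR6. EZH2 is the catalytic subunit of Polycomb repressive complex PRC2, which places the repressive mark H3K27me3.

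Of the 10 genes, 6 lie in clusters of neighbouring genes, given here in GRCm38. On chromosome 5, Cxcl9 (92321347 to 92328079, minus strand), Cxcl10 (92346638 to 92348889, minus strand) and Cxcl11 (92359544 to 92365485, minus strand) stand 18.56 and 10.65 kb apart. On chromosome 11, Ccl2 (82035571 to 82037453) and Ccl7 (82045712 to 82047525) are 8.26 kb apart and Ccl8 (82115185 to 82116799) follows 67.66 kb further on, all on the plus strand. Ccl5 (83525778 to 83530518) and Cxcl16 (70453983 to 70459984) are on the minus strand of the same chromosome but 1408.98 kb and 11575.59 kb from this cluster. Cxcl12 lies on chromosome 6 (117168535 to 117181367) and Cx3cl1 on chromosome 8 (94772009 to 94782427), both on the plus strand. GENCODE lists 9 of the genes as protein coding and Cxcl11 as a polymorphic pseudogene, since the C57BL/6 strain carries a frameshift in it, so its values below are values of a transcript.

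The sequences just upstream of Cxcl10, of its neighbour Cxcl9 and of Cxcl12 are shown. These 3 genes were all higher with IFN-γ, but among them motif matches were found only for Cxcl10. RefSeq promoter entries (250 bases before and 50 after the start of the gene, GRCm38.p6) were at hand for 5 of the 10 genes: Ccl8, Cx3cl1, Cxcl9, Cxcl10 and Cxcl12. Each line gives the 250 bases upstream of the start, 5′ to 3′ on the strand of the gene, and capitals mark the motif matches. Cxcl10 stands at chr5:92348890-92349139 (minus strand), Cxcl9 at chr5:92328080-92328329 (minus strand) and Cxcl12 at chr6:117168285-117168534 (plus strand).
Cxcl10: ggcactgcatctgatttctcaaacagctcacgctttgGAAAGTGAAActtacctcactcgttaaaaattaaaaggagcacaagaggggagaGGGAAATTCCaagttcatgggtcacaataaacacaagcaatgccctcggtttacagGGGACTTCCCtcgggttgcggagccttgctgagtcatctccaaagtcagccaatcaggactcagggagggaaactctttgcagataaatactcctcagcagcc
Cxcl9: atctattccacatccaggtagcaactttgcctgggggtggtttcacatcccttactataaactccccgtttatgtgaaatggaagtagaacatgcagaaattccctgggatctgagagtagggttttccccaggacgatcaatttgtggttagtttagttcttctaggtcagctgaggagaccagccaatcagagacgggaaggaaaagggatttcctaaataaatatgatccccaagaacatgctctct
Cxcl12: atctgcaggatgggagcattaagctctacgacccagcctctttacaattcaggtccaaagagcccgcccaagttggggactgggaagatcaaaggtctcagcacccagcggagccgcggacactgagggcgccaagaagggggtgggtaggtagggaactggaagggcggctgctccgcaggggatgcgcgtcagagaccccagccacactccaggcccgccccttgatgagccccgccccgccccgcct
The motifs searched on both strands were the interferon-stimulated response element core, written as GAAA, any 2 bases and GAAA again, and the NF-κB consensus, the last by a pattern with ambiguous letters. The Cxcl10 stretch holds 1 interferon-stimulated response element match, GAAAGTGAAA at bases -213 to -204 counted from the start of the gene, and 2 NF-κB matches, GGGAAATTCC at -159 to -150 and GGGACTTCCC at -103 to -94, and these do not overlap each other. Neither pattern was found in the windows of Cxcl9, Cxcl12, Ccl8 and Cx3cl1, which says only that these letters are not in these 300 bases. For Cx3cl1 the 250 bases before the RefSeq start (94771930 to 94772179) overlap an exon of Cx3cl1-201 in GENCODE (94772009 to 94772334). Its window is therefore in part transcribed sequence. Among all 32851 promoter entries of this length, 3.44% held the interferon-stimulated response element core and 4.51% the NF-κB consensus. The windows also differed in CpG content, with 20 CpG in that of Cxcl12, 19 in Cx3cl1, 10 in Cxcl10, 4 in Cxcl9 and 2 in Ccl8, against a median of 7 over all entries.

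Library totals were between 17403893 and 66546052 counts, a range of 3.82 times. Counts were scaled by TMM and are given as CPM, a library-scaled count, which compare one gene between libraries, and TPM, which is per length, is used wherever genes are compared with each other. Where no library of a group exceeded 3 counts, the gene is described as being at the floor in that group, and 3 counts correspond to 0.0455 to 0.169 CPM depending on the library. A gene was called changed at an adjusted p under 0.05 (edgeR, quasi-likelihood test, Benjamini-Hochberg over the whole table). In bulk RNA, more cells making a transcript and more transcript per cell cannot be told apart.

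With IFN-γ, 8 of the 10 genes were called higher and none lower, both without EZH2i (IFN-γ against Ctr) and with it (IFN-γ + EZH2i against EZH2i). Over all genes tested, 6.65% were called higher in the first comparison and 5.9% in the second. The 2 genes not called were Ccl5 and Cxcl16 in both comparisons. Since Cxcl9, Cxcl11 and Ccl8 entered the test only through the libraries in which they were high, they had to differ, and without them 5 of 7 genes were called in each comparison. The median fitted log2 fold change of the 10 genes was 5.55 without and 5.71 with EZH2i, or 3.48 and 4.32 with the 3 genes that were at the floor without IFN-γ set to their lower bound, and the median over all genes tested was 0.00 in each. In 9 of the 10 genes the 3 libraries with IFN-γ lay above the 3 without it in both comparisons, Ccl5 being the exception (6 of 7 without the 3 genes at the floor). Of all genes tested, 13.5% separated in this direction without EZH2i and 11.8% with it. Plots of the values by library and of the fold changes show the same separation.

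**Figure D1:**
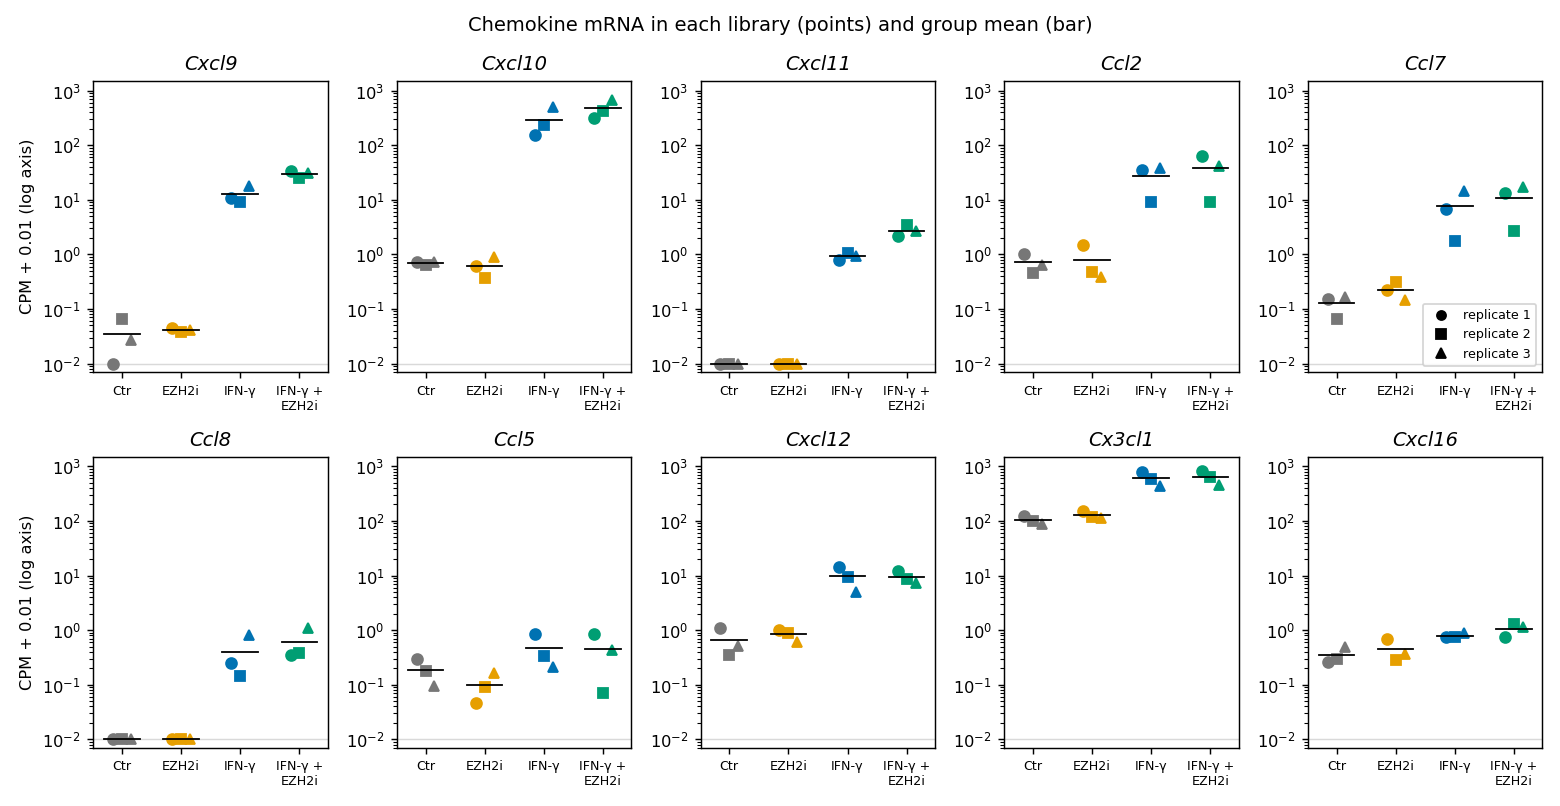
Each panel plots 1 chemokine gene, with the CPM of each library (plus 0.01, log axis) by group, the symbols marking replicate number and the bars the group means. Cxcl10 moves from under 1 CPM to between 153 and 680 CPM with IFN-γ, Cx3cl1 starts at 87.4 CPM or more, and points on the grey line are libraries with 0 counts.

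Cxcl10, which attracts CXCR3-bearing T cells, went from a trace to one of the most abundant transcripts of these OPCs. The Ctr libraries held 0.709, 0.621 and 0.729 CPM of Cxcl10 (replicates 1, 2 and 3, on 11 to 43 counts) and the EZH2i libraries 0.608, 0.356 and 0.880 CPM. With IFN-γ the same values were 153, 239 and 493 CPM, and with IFN-γ + EZH2i 319, 428 and 680 CPM. Every library with IFN-γ was thus above every library without it, while the libraries of the IFN-γ groups themselves spread over 3.23 times without and 2.14 times with EZH2i. The mean of Cxcl10 was 429.7-fold higher with IFN-γ than in Ctr (log2 fold change 8.72, SE 0.57, adjusted p = 6.01e-07) and 773-fold higher with IFN-γ + EZH2i than with EZH2i (9.53, SE 0.58, adjusted p = 2.87e-07). Without IFN-γ replicate 3, the highest library of its group, the first log2 fold change was 8.125. On the per-length scale Cxcl10 rose from rank 12877 of the 18995 genes tested in Ctr, by mean TPM, to rank 193 with IFN-γ and to rank 105 with IFN-γ + EZH2i. The Ctr rank depends on a retained-intron transcript of 344 bases, which took 29.7% to 76.1% of the Cxcl10 TPM there.

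Cxcl9 was at the floor without IFN-γ, with 0 to 1 counts in each Ctr library and 1 to 2 in each EZH2i library. Its level was 10.7, 9.27 and 18.1 CPM in the IFN-γ libraries and 34.1, 24.8 and 31.6 CPM in the IFN-γ + EZH2i libraries. The 3 groups, floor, IFN-γ and IFN-γ + EZH2i, did not overlap. Cxcl9 was at least 116.5-fold higher with IFN-γ than in Ctr (adjusted p = 8.1e-08) and at least 385.5-fold higher in the comparison with EZH2i (adjusted p = 1.87e-08). Cxcl11, their neighbour on chromosome 5, was not detected in any of the 6 libraries without IFN-γ (0 counts, which allows up to the floor given above). With IFN-γ it reached 0.771, 1.07 and 0.910 CPM, and with IFN-γ + EZH2i 2.14, 3.40 and 2.63 CPM. Cxcl11 was at least 8.41-fold higher with IFN-γ (adjusted p = 0.000207) and at least 34.8-fold higher with EZH2i present (adjusted p = 3.34e-05), again with no overlap between groups.

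The 3 CXCR3 ligands were far from equal in amount. Per length, Cxcl9 stood at 1.54% to 4.96% of the TPM of Cxcl10 over the IFN-γ libraries and at 2.31% to 8.41% over the IFN-γ + EZH2i libraries. Cxcl11 stood at 0.0787% to 0.258% and at 0.131% to 0.307% of Cxcl10. In every library with IFN-γ, then, Cxcl10 outnumbered the other CXCR3 ligands together. The gene level TPM includes short transcripts that Salmon could assign reads to. For Cxcl9, a retained-intron transcript of 370 bases (Cxcl9-202) took 35.3% to 65.3% of the gene's TPM with IFN-γ but only 3.12% to 9.69% of its counts. With IFN-γ + EZH2i Cxcl9-202 took 44.1% to 71.8% of the TPM and 4.555% to 14.2% of the counts. The TPM of Cxcl9 thus depends on this assignment far more than its CPM does. Cxcl10 was mainly the protein coding Cxcl10-201, with 66.03% to 88.3% of the TPM and 89.2% to 94.6% of the counts with IFN-γ, the largest other share of its TPM being a retained-intron transcript of 344 bases.

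Ccl2, the main ligand of CCR2 on monocytes, was low but present in every library without IFN-γ. The Ctr libraries held 1.03, 0.452 and 0.628 CPM of Ccl2 and the EZH2i libraries 1.50, 0.466 and 0.380 CPM. With IFN-γ the values were 34.5, 9.003 and 38.4 CPM, and with IFN-γ + EZH2i 64.5, 9.30 and 42.1 CPM. The groups with and without IFN-γ did not overlap, and in both IFN-γ groups the library of replicate 2 was far below the other 2. The mean of Ccl2 was 38.8-fold higher with IFN-γ (log2 fold change 5.25, SE 0.84, adjusted p = 0.00148) and 49.4-fold higher in the comparison with EZH2i (5.73, SE 0.85, adjusted p = 0.000777). The second log2 fold change of Ccl2 was 6.52 without EZH2i replicate 1 and 5.12 without IFN-γ + EZH2i replicate 1, and it was called in both cases.

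Ccl7, whose product acts on CCR2 and other monocyte receptors, behaved alike at a lower level. It stood at 0.142, 0.0565 and 0.153 CPM in Ctr (1 to 9 counts), at 0.215, 0.301 and 0.137 CPM with EZH2i, at 6.87, 1.73 and 14.2 CPM with IFN-γ and at 13.1, 2.67 and 17.1 CPM with IFN-γ + EZH2i. Replicate 2 was again the lowest library of both IFN-γ groups, by 8.23 times and 6.40 times against the highest. Ccl7 rose by 5.85 (SE 0.95, adjusted p = 0.0016) on the log2 scale without EZH2i and by 5.69 (SE 0.89, adjusted p = 0.00119) with it. Without IFN-γ replicate 3 the first of these was 5.02 for Ccl7 (adjusted p = 0.00365). Its TPM was 20.1% to 42.3% of that of Ccl2 over the 6 libraries with IFN-γ.

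Ccl8, further along the same cluster, was not detected in any library without IFN-γ (0 counts in each of 6). With IFN-γ it had 7, 5 and 52 counts (0.235, 0.133 and 0.802 CPM) and with IFN-γ + EZH2i 8, 12 and 43 counts (0.342, 0.365 and 1.07 CPM). These levels were above the floor but low, and replicate 3 held most of the counts of each group. Ccl8 was called at least 3.58-fold higher with IFN-γ (adjusted p = 0.0344) and at least 7.55-fold higher with EZH2i present (adjusted p = 0.017). The first call was lost when Ctr replicate 1, 2 or 3, IFN-γ replicate 3 or IFN-γ + EZH2i replicate 2 was left out (adjusted p = 0.0776, 0.0757, 0.112, 0.0707 and 0.0517 in this order), and the second without EZH2i replicate 3 (0.0599) or IFN-γ + EZH2i replicate 3 (0.0505).

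Ccl5, which attracts T cells and monocytes, was not called in any comparison. It ranged from 0.0848 to 0.284 CPM in Ctr, from 0.0357 to 0.152 with EZH2i, from 0.201 to 0.838 with IFN-γ and from 0.0608 to 0.855 with IFN-γ + EZH2i, on 1 to 25 counts. The groups overlapped in every comparison. The log2 fold change with IFN-γ was 1.35 (95% interval -0.54 to 3.24, adjusted p = 0.468) without EZH2i and 2.09 (0.16 to 4.02, adjusted p = 0.232) with it, so a change could not be detected at this depth and an increase of several times is within the error.

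Cxcl12, the ligand of CXCR4 and ACKR3, was at 1.06, 0.339 and 0.509 CPM in Ctr and at 1.00, 0.877 and 0.592 CPM with EZH2i. It stood at 14.4, 9.35 and 4.999 CPM with IFN-γ and at 12.1, 8.45 and 7.30 CPM with IFN-γ + EZH2i. Libraries with IFN-γ were all above those without it. The mean of Cxcl12 was 15.04-fold higher with IFN-γ (log2 fold change 3.88, SE 0.48, adjusted p = 0.000183) and 11.3-fold higher in the comparison with EZH2i (3.51, SE 0.46, adjusted p = 0.000298). The longest transcript, Cxcl12-201 of 5627 bases, carried 88.5% to 95.7% of the counts of Cxcl12 over the libraries with IFN-γ, so its per-length level was low for its count.

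Cx3cl1, the membrane-anchored ligand of CX3CR1, was the abundant chemokine of untreated OPCs. Its Ctr libraries held 125, 97.9 and 87.4 CPM and its EZH2i libraries 151, 116 and 115 CPM. With IFN-γ the values were 802, 597 and 434 CPM, and with IFN-γ + EZH2i 822, 645 and 458 CPM. Libraries with and without IFN-γ did not overlap, and in all 4 groups replicate 1 was the highest and replicate 3 the lowest. The mean was 5.91-fold higher with IFN-γ than in Ctr (log2 fold change 2.56, SE 0.27, adjusted p = 4.29e-05) and 5.03-fold higher with IFN-γ + EZH2i than with EZH2i (2.33, SE 0.26, adjusted p = 9.19e-05). The full-length Cx3cl1-201 carried 99.3% to 99.6% of the counts of Cx3cl1 over the libraries with IFN-γ.

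Cxcl16, the other membrane-anchored chemokine, stayed near the bottom of the range. It stood at 0.248, 0.282 and 0.475 CPM in Ctr, at 0.679, 0.274 and 0.349 CPM with EZH2i, at 0.737, 0.746 and 0.864 CPM with IFN-γ and at 0.727, 1.28 and 1.14 CPM with IFN-γ + EZH2i. Libraries with IFN-γ were above those without it in both comparisons, but the test did not call Cxcl16. The log2 fold change was 1.16 (95% interval 0.26 to 2.06, adjusted p = 0.128) without EZH2i and 1.31 (0.43 to 2.19, adjusted p = 0.0759) with it. In a fit with replicate number as a blocking term the second passed the threshold (adjusted p = 0.0338) and the first did not (0.0699). The second also passed in DESeq2 (adjusted p = 0.0362) and without EZH2i replicate 1 (0.0293). The fit with the replicate block called 8 of the 10 genes higher without EZH2i and 9 with it, against 12.4% and 11% of all genes tested.

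**Figure D2:**
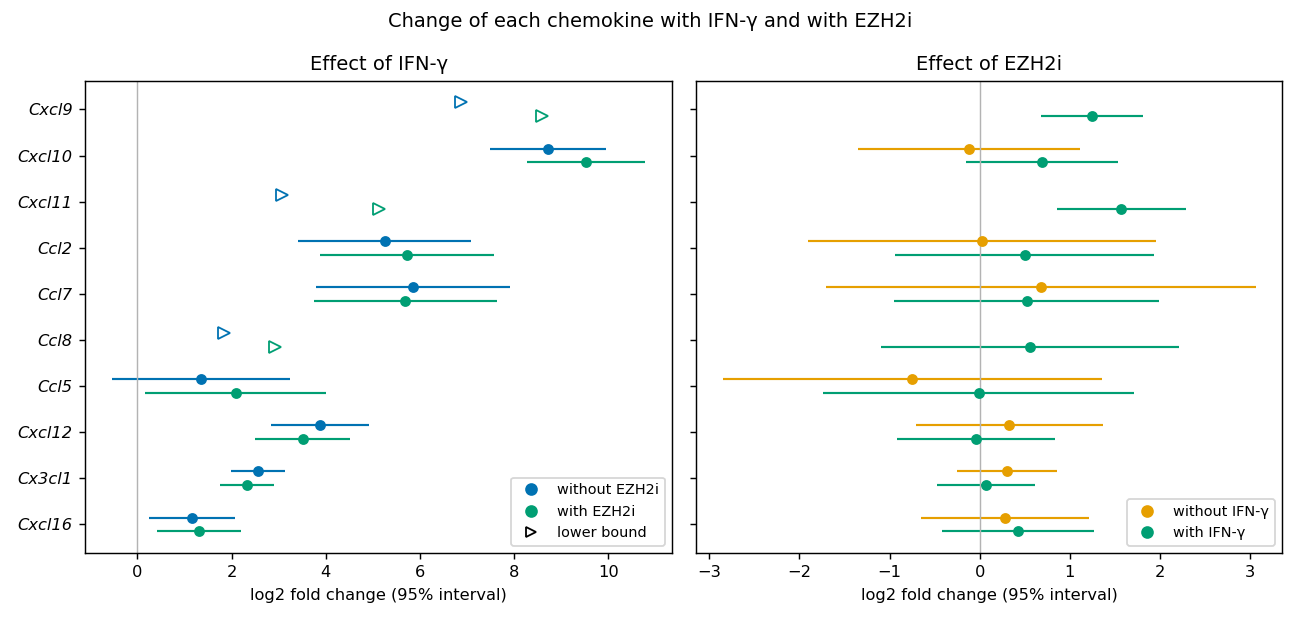
The left panel plots the log2 fold change of each gene with IFN-γ and the right panel that with EZH2i, as points with 95% intervals from the edgeR fit, and open triangles are lower bounds for genes at the floor without IFN-γ. Cxcl9, Cxcl11 and Ccl8 have no point without IFN-γ in the right panel because both groups were at the floor, and the Cxcl9 and Cxcl11 intervals with IFN-γ lie above 0.

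Among the 10 genes, the make-up of the transcripts changed along with their amount. Other chemokine ligands are not part of the sums and shares given here. The summed TPM of the 10 genes was 24.6 ± 0.949 (SD, n = 3) in Ctr, 37.4 ± 6.49 with EZH2i, 509 ± 98.7 with IFN-γ and 684 ± 41.5 with IFN-γ + EZH2i. Cx3cl1 made up 90.5% to 91.0% of this sum in the Ctr libraries and 91.8% to 94.8% in the EZH2i libraries. With IFN-γ its share was 17.2% to 48.4%, and with IFN-γ + EZH2i 13.5% to 30.9%, although its own level had risen. Cxcl10 went from 2.51% to 5.29% of the sum in Ctr to 36.5% to 70.7% with IFN-γ and 50.3% to 75.6% with IFN-γ + EZH2i. Ccl2 took 2.41% to 9.97% and 1.69% to 11.4% in these 2 groups, and each of the other 7 genes at most 4.23% in any library with IFN-γ.

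**Figure D3:**
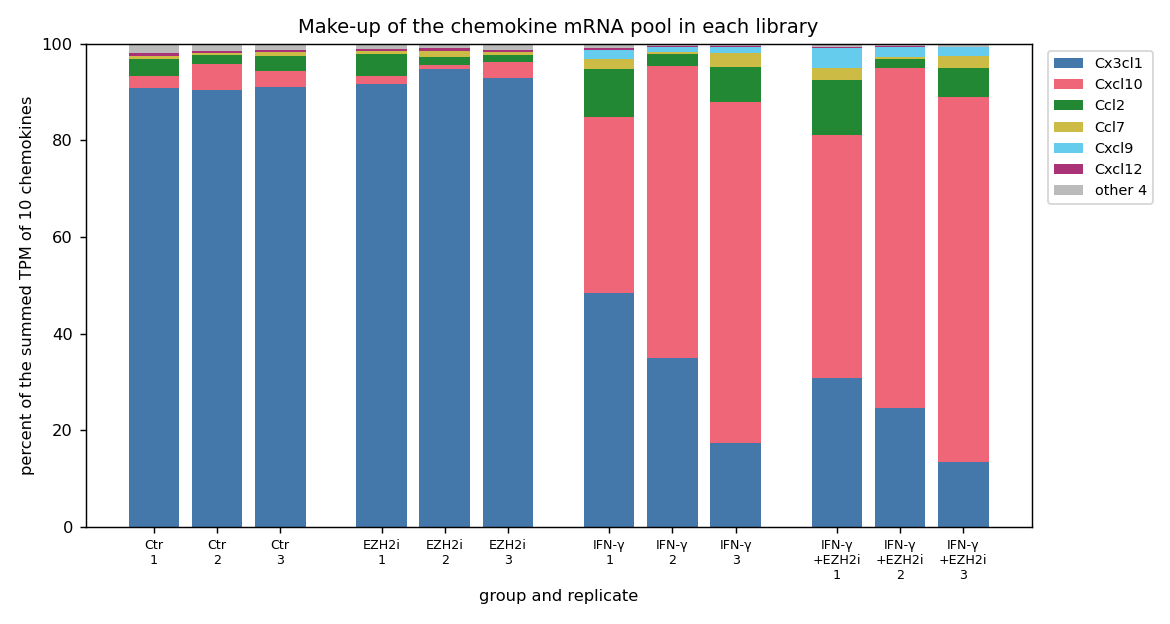
Stacked bars give the share of each gene in the summed TPM of the 10 chemokine genes (percent) in each library, with Cxcl11, Ccl5, Ccl8 and Cxcl16 pooled. Cx3cl1 makes up at least 90.5% of the sum in the 6 libraries without IFN-γ and at most 48.4% in the 6 with it, where Cxcl10 makes up 36.5% to 75.6%.

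In order of mean TPM, Ctr ran from Cx3cl1 (22.3 TPM) over Cxcl10 (0.910) and Ccl2 (0.713) to Ccl5, Ccl7, Cxcl12 and Cxcl16, all under 0.3 TPM, with Cxcl9 at 0.00647 TPM and Cxcl11 and Ccl8 at 0. The order of Cxcl10 and Ccl2 depends on a retained-intron transcript of 344 bases, which took 29.7% to 76.1% of the Cxcl10 TPM in Ctr. The protein coding Cxcl10-201 averaged 0.355 TPM there, below Ccl2-201 at 0.669. Cx3cl1 was clear of Cxcl10 in every library, Cxcl10 and Ccl2 overlapped, and so did the neighbours Ccl5 and Ccl7, Ccl7 and Cxcl12, and Cxcl12 and Cxcl16. With IFN-γ the order was Cxcl10 (295 TPM), Cx3cl1 (160.2), Ccl2 (32.8), Ccl7 (9.46), Cxcl9 (6.45), Cxcl12 (1.53), Ccl5 (1.02), Ccl8 (0.969), Cxcl11 (0.416) and Cxcl16 (0.292). Cxcl10 and Cx3cl1 overlapped there, since Cx3cl1 had 133% of the TPM of Cxcl10 in replicate 1, 57.7% in replicate 2 and 24.4% in replicate 3. With IFN-γ + EZH2i Cxcl10 (450.2 TPM) was above Cx3cl1 (155) in every library, and Cxcl9 (18.1) stood before Ccl7 (12.5), the ranges of these last 2 overlapping. This order of Cxcl9 and Ccl7 depends on the retained-intron Cxcl9-202, which took 44.1% to 71.8% of the Cxcl9 TPM in that group. The protein coding Cxcl9-201 averaged 7.12 TPM there, below Ccl7. The range of Ccl2 over libraries lay below that of Cx3cl1 in both groups, and it overlapped with the range of Ccl7 with IFN-γ and with that of Cxcl9 with IFN-γ + EZH2i.

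Without IFN-γ, EZH2i changed none of the 10 genes in the test (EZH2i against Ctr), where 0.405% of all genes tested were called, and none had an unadjusted p under 0.05. DESeq2 and the fit with a replicate block also called 0 of the 10. The median log2 fold change of the 10 genes was 0.15, against 0.01 over all genes tested. Cxcl9, Cxcl11 and Ccl8 remained at the floor in all 3 EZH2i libraries, so no fold change is given for them. The log2 fold change of Cxcl10 was -0.12 (95% interval -1.35 to 1.11) and that of Ccl2 0.03 (-1.90 to 1.95), so sizeable changes in either direction are within the error for both. For Cx3cl1 it was 0.30 (-0.25 to 0.85, adjusted p = 0.957), with CPM values that overlapped in part, while its TPM was 21.5 to 23.2 in Ctr and 30.5 to 41.1 with EZH2i and did not overlap. With length-scaled TPM in place of counts the test gave 0.32 for Cx3cl1 (adjusted p = 0.954).

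Under IFN-γ, EZH2i also gave no call among the 10 genes (IFN-γ + EZH2i against IFN-γ) in the test without a block, where 0.353% of all genes tested were called. Unadjusted p-values under 0.05 were reached by Cxcl9 and Cxcl11, the genes whose 3 libraries with both agents lay above the 3 with IFN-γ alone, as did those of 6.08% of all genes tested. On the log2 scale the change of Cxcl9 was 1.25 (95% interval 0.68 to 1.81, adjusted p = 0.0865) and that of Cxcl11 1.57 (0.86 to 2.29, adjusted p = 0.167). Cxcl10 gave 0.69 (-0.15 to 1.53, adjusted p = 0.89), and its groups overlapped, IFN-γ replicate 3 being above replicates 1 and 2 with both agents. The remaining genes gave intervals that all included 0, from -0.94 to 1.93 for Ccl2, -0.95 to 1.99 for Ccl7, -1.09 to 2.21 for Ccl8, -1.74 to 1.71 for Ccl5, -0.92 to 0.83 for Cxcl12, -0.42 to 1.27 for Cxcl16 and -0.48 to 0.62 for Cx3cl1. The interval of Cx3cl1 is the narrowest of these, and it leaves out a change of 2-fold in either direction.

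Libraries with the same replicate number varied together between these 2 groups, so the ratio within each number shows the effect of EZH2i without the spread that these libraries share. For Cxcl9 the ratio of IFN-γ + EZH2i to IFN-γ was 3.19, 2.68 and 1.75 in replicates 1, 2 and 3. For Cxcl10 it was 2.08, 1.79 and 1.38, and for Cxcl11 2.77, 3.20 and 2.89. The 3 ratios were above 1 for each of these genes, and also for Ccl2, Ccl7, Ccl8 and Cx3cl1, as they were for 23.3% of all genes tested. With the replicate number as a block, edgeR's quasi-likelihood test called all 3 genes higher (adjusted p = 0.00106 for Cxcl9, 0.0177 for Cxcl10 and 0.0212 for Cxcl11), so 3 of the 10 genes were called against 3.94% of all genes tested. DESeq2 without a block called Cxcl9 (adjusted p = 0.00364) and Cxcl11 (0.00291) but not Cxcl10 (0.945), against 0.81% of all genes. Without IFN-γ replicate 3, the test without a block called Cxcl9 (adjusted p = 0.0493).

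The genes of the chromosome 11 cluster had smaller or less even ratios. Ccl7 gave 1.90, 1.55 and 1.202, Ccl8 1.46, 2.74 and 1.33 on few counts, and Ccl2 1.87, 1.03 and 1.10. None was called with the block (adjusted p = 0.442, 0.496 and 0.549). Cx3cl1 was close to 1 in each number, at 1.02, 1.08 and 1.06, while Cxcl12, Ccl5 and Cxcl16 had ratios on both sides of 1.

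**Figure D4:**
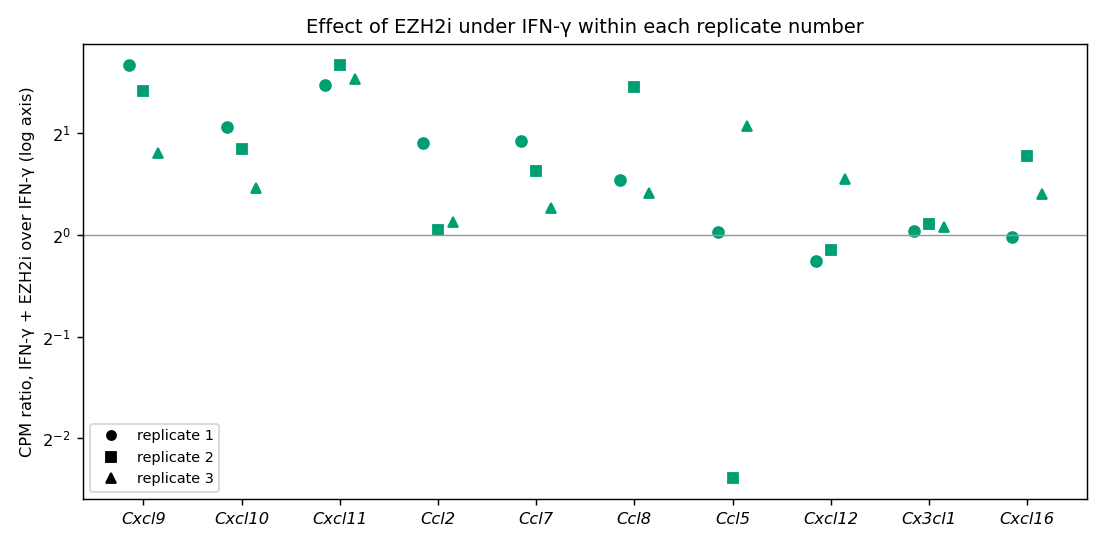
Each symbol is the CPM ratio of the IFN-γ + EZH2i library to the IFN-γ library of the same replicate number (log axis), by gene. The 9 ratios of Cxcl9, Cxcl10 and Cxcl11 lie between 1.38 and 3.20, those of Cx3cl1 between 1.02 and 1.08, and the low point is Ccl5 in replicate 2, which rests on 2 and 12 counts.

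Whether EZH2i acted differently with and without IFN-γ was tested as an interaction. No gene of the 10 and 0% of all genes tested were called in edgeR's quasi-likelihood test, with 127 genes at an unadjusted p under 0.05 and 0 genes called by DESeq2. For Cxcl10 the interaction was 0.81 on the log2 scale (95% interval -0.68 to 2.30), for Ccl2 0.47 (-1.92 to 2.86), for Ccl7 -0.16 (-2.81 to 2.49), for Cxcl12 -0.37 (-1.73 to 0.99) and for Cx3cl1 -0.23 (-1.01 to 0.54). For Cxcl9, Cxcl11 and Ccl8 it is not determined, since the change with EZH2i could not be measured at the floor. An effect of EZH2i that differs with IFN-γ is therefore not shown for any of the 10 genes.

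The receptors for these ligands were mostly not detected in the same cells. Of 22 chemokine receptor genes, 5 had 0 counts in all 12 libraries, among them Ccr1, Ccr2 and Ccr3, and 10 had 3 counts or fewer in every library. Cxcr3, the receptor of Cxcl9, Cxcl10 and Cxcl11, had at most 1 count and Cx3cr1, the receptor of Cx3cl1, at most 6. Cxcr6, the receptor of Cxcl16, was at 0.179 to 0.721 CPM. The receptors of Cxcl12 were expressed. Cxcr4 averaged 4.38 CPM in Ctr, 3.14 with EZH2i, 2.69 with IFN-γ and 2.29 with IFN-γ + EZH2i and was not called in any comparison. Ackr3, which binds Cxcl12 and Cxcl11 without G protein signaling, stood at 5.21, 4.91 and 5.41 CPM in Ctr and at 12.9, 13.3 and 7.53 CPM with IFN-γ. It was called higher with IFN-γ (log2 fold change 1.11, SE 0.23, adjusted p = 0.00957) and in the comparison with EZH2i (8.41 against 4.05 CPM, 1.05, SE 0.23, adjusted p = 0.0145). Of the 7 receptor genes tested, Ackr3 was the only one called in each IFN-γ comparison without a block. Over all genes tested, 6.65% and 5.9% were called higher in these comparisons. None of the 7 was called for an effect of EZH2i, where 0.405% of all genes tested were called without IFN-γ and 0.353% with it. Ackr4, a scavenger of other chemokines, was at 1.58 CPM in Ctr and 0.766 CPM with IFN-γ (adjusted p = 0.315, with a replicate block 0.0478).

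Among 28 other chemokine ligand genes, 9 had 0 counts in all libraries and 17 had 3 or fewer, among them Ccl3, Ccl4, Cxcl2 and Cxcl13. Of the 10 tested, 2 were called higher with IFN-γ (Ccl11 and Ccl12) and 4 in the comparison with EZH2i (these 2, Cxcl1 and Ccl17). Over all genes tested, 6.65% and 5.9% were called higher. Ccl11 and Ccl12 had to differ, for the reason given below. Without EZH2i, then, no call among the 10 carries information, and with EZH2i only those of Cxcl1 and Ccl17 are left. Ccl11 and Ccl12, which lie between Ccl7 and Ccl8 on chromosome 11 (82057823 to 82062955 and 82101845 to 82103400, plus strand), were called in both. Ccl11 was at the floor without IFN-γ, at 0.302, 0.0799 and 0.293 CPM with IFN-γ (3 to 19 counts, adjusted p = 0.0495) and at 0.727, 0.365 and 0.696 CPM with IFN-γ + EZH2i (adjusted p = 0.00147). Ccl12 was at 0 counts in each library without IFN-γ and had means of 0.197 CPM with IFN-γ (adjusted p = 0.0293) and 0.402 CPM with IFN-γ + EZH2i (adjusted p = 0.00829). All 5 genes of this stretch of chromosome 11, Ccl2, Ccl7, Ccl11, Ccl12 and Ccl8, were thus called higher with IFN-γ in both comparisons. Ccl11, Ccl12 and Ccl8, however, were at the floor without IFN-γ and entered the test only through the libraries with it. They had to differ, so of the 5 only the calls of Ccl2 and Ccl7 carry information. Ccl11 also rests on 3 counts in IFN-γ replicate 2. Cxcl1, a ligand for neutrophils, was at 0.101 CPM in Ctr and 0.744 with IFN-γ (adjusted p = 0.0775, with a replicate block 0.00298) and at 0.128 CPM with EZH2i and 1.15 with IFN-γ + EZH2i (adjusted p = 0.0342). Ccl17 was called only in the comparison with EZH2i (0.0953 and 0.591 CPM, adjusted p = 0.0352), but the interaction was not called for either gene.

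The most abundant of these other ligands did not follow IFN-γ. Cxcl14 was at 27.6 to 40.4 CPM in the group means and Ccl25 at 9.10 to 12.3 CPM, and neither was called in the test without a block. Cxcl14 libraries with EZH2i lay above those without it both without IFN-γ (39.1 against 28.7 CPM, adjusted p = 0.447) and with it (40.4 against 27.6 CPM, adjusted p = 0.287, with a replicate block 0.00683). Ccl25 was lower with IFN-γ than in Ctr only in the fit with a replicate block (9.53 against 12.3 CPM, adjusted p = 0.258 without and 0.0417 with it).

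The genes upstream of the chemokines were also read. Of 13 genes of IFN-γ and NF-κB signaling, 7 were called higher with IFN-γ in both comparisons by the test without a block. The share of all genes tested that was called higher was 6.65% without and 5.9% with EZH2i. Among the 7 were Irf1, Irf8, Jak1, Jak2, Socs1 and Cebpb, and none of the 13 was called for an effect of EZH2i. Irf1, a transcription factor that binds interferon-stimulated response elements, was at 11.98 CPM in Ctr and 951 with IFN-γ. Irf8 was at 1.80 and 453.8 CPM. The receptor genes Ifngr1 and Ifngr2 were not called, nor were Nfkb1, Rela, Nfkbia and Nfkbiz, genes of the NF-κB pathway. With the replicate block, Ifngr2 was called lower in both comparisons (log2 fold change -0.41 and -0.44), and Nfkb1 (0.28) and Nfkbia (0.39) were called higher without EZH2i. Of 8 tested genes that shed, trim or hold chemokines at the cell surface, Ndst1, a heparan sulfate sulfotransferase, was called higher with IFN-γ (319 against 185 CPM, adjusted p = 0.00705) but none of the 8 in the comparison with EZH2i (Ndst1 310 against 212 CPM, adjusted p = 0.0545, with a replicate block 0.000855), and the sheddases Adam10 and Adam17 were not called in any comparison. Ndst1 and the signaling genes named here were picked with their values known.

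The genes with the pattern most like that of Cxcl10 over the 12 libraries, by the root mean square difference of centred log2(CPM + 0.1), were Parp14 (0.415), BC023105 (0.418) and Gm4841 (0.48). Parp14, an ADP-ribosyltransferase, went from 1.80 CPM in Ctr to 755 with IFN-γ. The genes most like Ccl2 were its neighbour Ccl7 (0.576), Ifi211 (0.645) and Gm4070 (0.661). Only genes with a mean of at least 1 CPM over the 12 libraries were searched.

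Marker genes of other cell types were measured in the same libraries. The 7 OPC markers summed to 4210 to 7639 CPM in every library, with Sox10 and Pdgfra, the genes behind the sort and the beads, among them. Of these 7, Pdgfra and Cspg4 were called lower with IFN-γ in both comparisons (Pdgfra 1505 against 716 CPM and 1213 against 529 CPM). Among all 18995 genes tested, 399 and 413 were called lower in these comparisons. With the replicate block 4 and 5 of the 7 were called lower, against 1672 and 1577 of all genes tested. The 10 microglia and macrophage markers summed to 2.19 to 2.77 CPM in Ctr, 2.19 to 3.15 with EZH2i, 3.14 to 4.52 with IFN-γ and 2.46 to 3.38 with IFN-γ + EZH2i, none of the 3 tested was called without a block, P2ry12 was called higher with IFN-γ than in Ctr with the block (0.943 against 0.477 CPM, adjusted p = 0.0481), C1qa was at 0 in all 12 libraries and Aif1 and Trem2 had at most 2 counts. Of the 6 T cell markers, Cd3d was at 0 in all libraries and Cd3e had at most 1 count, while Lck rose from 0.151 to 3.08 CPM with IFN-γ (adjusted p = 9.58e-06). The sum of the T cell list was 0.214 to 0.603 CPM without IFN-γ and 2.61 to 3.61 CPM with it.

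Other lists did move with IFN-γ. The 6 neuron markers summed to 36.8 to 52.8 CPM in Ctr, 52.9 to 91.9 with EZH2i, 687 to 1286 with IFN-γ and 955 to 1654 with IFN-γ + EZH2i. In the IFN-γ group nearly all of the sum was Tubb3 (916 CPM, against 26.7 CPM in Ctr). Syt1 and Stmn2 were also called in both comparisons while Rbfox3 and Snap25 were not. The 6 pericyte and fibroblast markers summed to 0.993 to 1.83 CPM in Ctr and 3.22 to 4.88 with IFN-γ, with Lum and Kcnj8 called in both comparisons and Dcn at the floor in both groups. None of the 4 endothelial markers tested (the list of 6 summed to 13.0 to 40.1 CPM) and none of the 6 astrocyte markers was called in any comparison without a block. The 6 mature oligodendrocyte markers summed to 1471 to 1839 CPM in Ctr, 808 to 1287 with EZH2i, 1393 to 1611 with IFN-γ and 781 to 1272 with IFN-γ + EZH2i, and none of the 5 tested was called without a block. With the block, 1 of the 6 astrocyte markers was called in each IFN-γ comparison, where 4032 and 3661 of all 18995 genes tested were called. Between IFN-γ + EZH2i and IFN-γ the block called 3.94% of all genes tested. There Mag and Mbp were among the markers called lower, and 2 astrocyte markers (Gfap and Aqp4) and the endothelial Flt1 were called higher. Stmn2 was also called higher with IFN-γ + EZH2i than with IFN-γ (5.03 against 0.855 CPM, adjusted p = 0.0321), the comparison in which Cxcl9 and Cxcl11 did not overlap. Astrocyte markers were substantial, however, at 428 to 1478 CPM in sum, and in all 4 groups replicate 3 was the highest. Replicate 3 was also the library with the most Cxcl10 and Ccl7 in both IFN-γ groups and with the least Cx3cl1 in all 4. The part of these markers in the chemokine values was not tested.

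**Figure D5:**
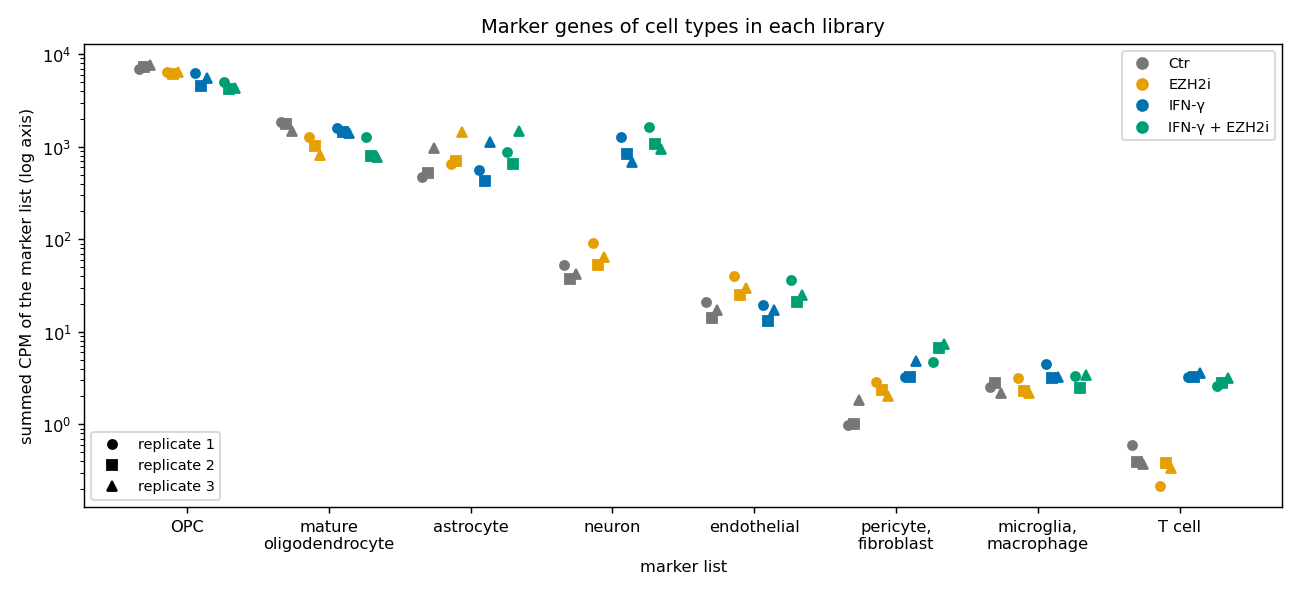
For each marker list the summed CPM of its genes is plotted for each library (log axis), with colours for the group and symbols for replicate number. Microglia and macrophage markers stay between 2.19 and 4.52 CPM in sum and OPC markers between 4210 and 7639 CPM, while the neuron list is higher in all 6 libraries with IFN-γ, and astrocyte markers are highest in replicate 3 of each group.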

How the data were processed

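Bulk RNA-seq of 12 libraries of mouse OPCs was analysed, with groups and replicate numbers taken from the labels. After adapter and quality trimming the authors ran Salmon 0.8.2, and the deposited estimated counts per transcript are not scaled. The deposited TPM values were made by the authors from these counts and the effective transcript lengths. The submitters' processing notes also name STAR and DESeq2. A pair of deposited DESeq2 tables hold the authors' own comparisons and were not used.

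Here estimated counts and TPM were summed per gene with GENCODE annotation of GRCm38 (141862 transcripts, all matched), and counts were rounded. edgeR 4.0.16 in R 4.3.3 was used with TMM factors, its default filter on low counts and the quasi-likelihood test, fitted jointly to the 12 libraries by group (8 residual degrees of freedom), and p-values were adjusted by Benjamini-Hochberg over the 18995 genes tested. Intervals are 95% intervals of this fit. The study's methods name DESeq2, which was run as an alternative (version 1.42.0), beside RLE factors, other filters, a replicate block, length-scaled TPM, only the libraries of a comparison and each library left out in turn. The script was tested on simulated counts. The chi-square between replicates of a group was 32.8 to 182 per gene, so no library was counted more than once.

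All 10 chemokine genes are named. Other ligands and receptors are named if called or at 1 CPM or more in a group mean, receptors of the 10 always, and markers as listed. Some listed genes and 1 motif are not reported here. The members and lists were chosen with earlier results of these data known.

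The labels number replicates 1 to 3 in each group but do not say that a number marks a litter. Deviations from the group means correlated between libraries of the same number at 0.638 to 0.748 between IFN-γ and IFN-γ + EZH2i, at 0.605 to 0.686 between EZH2i and IFN-γ + EZH2i, at 0.105 to 0.652 between Ctr and IFN-γ, and at 0.0929 to 0.608 between Ctr and EZH2i. Pairing by number was accepted for the first 3 of these, the third by a small margin.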

Additional observations from a re-analysis of the deposited data

How the results depend on the processing

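Each library holds 17403893 to 66546052 counts, so Ccl5, Ccl8 and Cxcl16, with at most 56 counts in any library, rest on few reads, and 3 replicates per group limit what can be called. Without any block, every call of the 8 genes with IFN-γ kept its direction and its side of the threshold under RLE factors, no filter, length-scaled TPM and DESeq2, and under each left-out library except for Ccl8. With only the libraries of a comparison, Ccl8 was not tested against Ctr and 7 genes of the 8 tested were called, and 8 of 9 with EZH2i. The exception among filters was at least 10 counts in every library, which leaves 2 of the 10 genes to test and calls 2 in each IFN-γ comparison. Leaving out 1 library gave 7 to 8 calls without EZH2i and 7 to 9 with it. For IFN-γ + EZH2i against IFN-γ the calls among the 10 genes were 0, but 1 with no filter, 3 with the replicate block, 2 with DESeq2 and 0 to 1 with 1 library left out.

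Over all genes, 1663 were called between IFN-γ and Ctr and 4032 with the replicate block, and 1533 and 3661 between IFN-γ + EZH2i and EZH2i. Between EZH2i and Ctr the 77 calls became 121 with no filter, 29 with at least 10 counts in every library, 771 with the replicate block, 50 with length-scaled TPM, 33 with only the libraries of the comparison, 297 with DESeq2 and 11 to 83 with 1 library left out (11 to 41 without Ctr 1, 2 or 3, EZH2i 1 or 2, or IFN-γ + EZH2i 2). Between IFN-γ + EZH2i and IFN-γ the 67 calls became 11 with at least 10 counts, 748 with the block, 30 with length-scaled TPM, 7 with only these libraries, 259 with DESeq2 and 10 to 65 with 1 library left out (10 to 43 without any one library other than EZH2i 3 and IFN-γ + EZH2i 3). The cause was not tested, except that the stricter filter and the subsets test fewer genes or libraries. The block, where the numbers pair the libraries, changed the call of Cxcl9, Cxcl10, Cxcl11 and Cxcl16 as given above and of none of the other 6 genes. Between EZH2i and Ctr, where the numbers were not taken to pair, it called 0 of the 10.

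Sign changes were limited to values that were not called. The log2 fold change of Cxcl12 between IFN-γ + EZH2i and IFN-γ was 0.038 with the replicate block, and the interaction of Cxcl16 was -0.30 with length-scaled TPM. With 1 library left out, values ran from -0.77 to 0.42 (Ccl2), -0.56 to 0.14 (Cxcl10) and -0.15 to 0.68 (Cxcl16) for EZH2i against Ctr. For IFN-γ + EZH2i against IFN-γ they ran from -0.094 to 0.96 (Ccl2), -0.81 to 0.75 (Ccl5), -0.21 to 1.72 (Ccl8), -0.15 to 0.31 (Cx3cl1) and -0.36 to 0.37 (Cxcl12). For the interaction they ran from -0.12 to 1.27 (Ccl2), -0.059 to 1.51 (Ccl5), -0.65 to 0.67 (Ccl7), -0.46 to 0.013 (Cx3cl1), -0.91 to 0.044 (Cxcl12) and -0.26 to 0.58 (Cxcl16).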
